A study of Mus musculus with 12 samples.

Results

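The comparison of C313Y heterozygotes with their own wild types rests on 4 of the 12 ATAC-seq libraries of the series. Both C313Y heterozygote libraries (replicates 2 and 3, genotype Aire +/C313Y) and both wild-type libraries whose titles carry the same prefix (replicates 1 and 2, genotype Aire +/+) were taken by title. All 4 came from C57BL/6 mice aged 4 to 7 weeks. The labels give the tissue as mTEChi, that is, mature medullary epithelial cells of the thymus (mTEC), which were sorted after the thymus had been digested with Liberase TH and DNase. The material was nucleosome-free chromatin. The other 8 libraries, used here for reference, are Aire -/- and Aire +/C442G mice, each with a pair of Aire +/+ mice of its own, with 2 libraries per group. The labels do not say that replicates came from separate animals, nor give the sex, and the spread between replicates may be technical. The whole animal carried the heterozygous change, and the wild-type allele was present in every heterozygote.

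AIRE (autoimmune regulator) is a chromatin-associated protein of medullary thymic epithelial cells that raises the expression of many genes otherwise restricted to other tissues, so that developing T cells can be tested against their products. It works as a multimer and recruits partners that act on DNA breaks, elongation and superenhancers. The C313Y change alters a cysteine, and single-copy changes of this kind are known to act dominantly on the protein made from the other allele. ATAC-seq uses a transposase that inserts where DNA is accessible, and a peak is a stretch where insertions exceed the background.

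The deposited files for these 4 libraries hold the positions of peaks and nothing else, so that the depth of reads is unknown. Peaks on chromosomes 1 to 19 and X numbered 75830 and 57280 in heterozygotes 2 and 3, against 73976 and 55861 in wild types 1 and 2. They covered 17.1 and 12.5 Mb in heterozygotes, against 14.3 and 12.4 Mb in wild types. Each group therefore held one long and one short list. The log2 ratio of heterozygotes over wild types was 0.04 for peak number (66555 ± 13117 against 64919 ± 12809; SD, n = 2 each) and 0.15 for covered length. It was 0.14 for median peak width and 0.02 for the number of genes with a peak at an end. The exact two-sided permutation p was 0.667 for each of these measures, in a design whose smallest possible p is 0.333.

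Wild type 1 stood apart from the other 3 libraries before any comparison of genotypes. Its overlap with the others, as shared over joint bases (the Jaccard index), was 0.381 with heterozygote 2, 0.385 with heterozygote 3 and 0.385 with wild type 2. The other 3 libraries overlapped each other at 0.454 to 0.484, and the closest pair was that of both heterozygotes. Wild type 1 also had the narrowest peaks, with a median of 123 bp against 153 and 148 bp in heterozygotes and 150 bp in wild type 2. Its share of peaks on X was 3.27%, against 2.19% and 1.93% in heterozygotes and 2.23% in wild type 2. Of its regions, 35.4% were seen in no other of the 4 libraries, against 23.3% and 12.3% for the heterozygotes and 14.7% for wild type 2. Results below are therefore also given without it where they move.

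Promoter sequences are shown for 6 genes on which the gene-level results turn. Each is the 250 bases before the RefSeq start of transcription on the coding strand (GRCm38.p6, the coordinates of mm10), and capitals mark the bases covered by a peak in both libraries of the group that had one. Cnga2, a subunit of the cyclic nucleotide-gated channel of olfactory neurons (chrX:71991599-71991848, plus strand), is shown as the one gene gained in all 3 mutant genotypes. Other genes gained in Aire -/- and C442G libraries, Dcc, C1qtnf2 and D830030K20Rik, were lost here. Amigo1, a neuronal adhesion gene (chr3:108186039-108186288, plus strand), had one of the widest gained peaks. Nkx6-2, a homeobox transcription factor of oligodendrocytes and islets (chr7:139582798-139583047, minus strand), was the gained member of the mimetic cell factors. Lypd3, which encodes a surface protein of keratinocytes (chr7:24636320-24636569, plus strand), was gained here and lost in the C442G heterozygotes.
Cnga2: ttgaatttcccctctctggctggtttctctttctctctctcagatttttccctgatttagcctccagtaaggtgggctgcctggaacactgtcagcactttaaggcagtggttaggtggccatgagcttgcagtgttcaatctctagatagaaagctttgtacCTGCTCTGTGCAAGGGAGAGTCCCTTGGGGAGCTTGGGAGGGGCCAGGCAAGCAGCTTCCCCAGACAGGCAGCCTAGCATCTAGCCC
Amigo1: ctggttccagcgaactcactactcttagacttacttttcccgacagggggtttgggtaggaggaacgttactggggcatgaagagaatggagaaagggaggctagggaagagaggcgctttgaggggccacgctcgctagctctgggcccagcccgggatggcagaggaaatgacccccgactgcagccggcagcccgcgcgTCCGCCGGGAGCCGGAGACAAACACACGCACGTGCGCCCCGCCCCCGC
Nkx6-2: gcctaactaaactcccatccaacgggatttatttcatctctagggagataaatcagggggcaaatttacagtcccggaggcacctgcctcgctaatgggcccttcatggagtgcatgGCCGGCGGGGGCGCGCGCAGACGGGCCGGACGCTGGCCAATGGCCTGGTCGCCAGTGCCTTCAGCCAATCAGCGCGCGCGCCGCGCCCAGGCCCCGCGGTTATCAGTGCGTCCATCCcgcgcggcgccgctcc
Lypd3: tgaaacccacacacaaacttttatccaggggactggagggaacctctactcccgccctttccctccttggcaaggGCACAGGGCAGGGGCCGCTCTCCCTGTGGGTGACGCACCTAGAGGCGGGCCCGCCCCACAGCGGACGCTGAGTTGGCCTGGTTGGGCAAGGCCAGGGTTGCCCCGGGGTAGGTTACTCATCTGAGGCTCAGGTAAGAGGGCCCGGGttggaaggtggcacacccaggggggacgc
Lost genes are represented by Sec16b, which acts in export from the endoplasmic reticulum (chr1:157506546-157506795, plus strand), and by the olfactory receptor Olfr536 (chr7:140507319-140507568, minus strand), whose peaks crossed these bases in both wild types. The call of Sec16b ended when lists were cut to equal length, and that of Olfr536 held.
Sec16b: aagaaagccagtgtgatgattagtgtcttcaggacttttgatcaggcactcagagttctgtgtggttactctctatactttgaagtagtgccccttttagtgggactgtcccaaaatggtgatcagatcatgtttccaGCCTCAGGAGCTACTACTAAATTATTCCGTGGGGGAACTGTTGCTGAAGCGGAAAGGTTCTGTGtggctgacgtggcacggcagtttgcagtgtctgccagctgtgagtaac
Olfr536: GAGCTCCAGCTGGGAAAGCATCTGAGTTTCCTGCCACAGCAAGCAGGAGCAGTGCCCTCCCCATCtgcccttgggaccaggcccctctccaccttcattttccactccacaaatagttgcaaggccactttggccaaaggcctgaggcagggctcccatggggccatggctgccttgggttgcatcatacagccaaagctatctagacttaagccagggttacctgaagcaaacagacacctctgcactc
In these windows the shared peak covered from 48 of the bases at Amigo1 to 146 at Lypd3.

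The identity of the sorted cells was checked at 21 genes of mTEC identity and antigen presentation. Of these, 16 were open (a peak closer than 1 kb to an annotated end) in all 4 libraries, as had 54.1% of all genes, among them Epcam, an epithelial adhesion molecule, Fezf2, a transcription factor that directs a second set of tissue antigens, the keratin Krt5, the thymic epithelial factor Foxn1 and the class II gene H2-Aa. Cd80, a costimulator that marks the high state, and Ciita, the regulator of class II genes, had no such peak in any of the 4 libraries. Krt14 and the costimulator gene Cd86 had none in heterozygote 3, and the chemokine gene Ccl22 had one in wild type 2 alone. The rule does not look further inside a gene, so absence here does not show that a gene was closed throughout. In most lists of other cells few genes were open in all 4 libraries. The counts were 2 of 14 T cell genes, 0 of 8 B cell genes and 3 of 12 dendritic cell and macrophage genes. They were 1 of 14 fibroblast and mural cell genes and 1 of 10 endothelial genes. The cortical epithelial list differed, with 4 of 8 genes open in all 4 libraries, near the share of all genes. The endothelial markers Pecam1 and Cdh5 and the fibroblast collagen Col3a1 had a peak in none. The collagen Col1a1 and the endothelial gene Flt1 of the same lists had a peak in all 4 libraries.

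The Aire gene itself (chromosome 10, 78030022 to 78043610, minus strand) was open at its start in every library. The region there (78043474 to 78043789) held peaks of 251 and 292 bp in heterozygotes 2 and 3, against 273 and 316 bp in wild types 1 and 2. The groups overlapped at the start, whereas a region beyond it did not. That region (78046194 to 78046998, inside the neighbouring gene Dnmt3l) held 805 and 578 bp of peaks in heterozygotes, against 482 and 535 bp in wild types. Beyond the other end of Aire, a region at 78028230 to 78028424 held 188 and 149 bp in heterozygotes, against 118 and 96 bp in wild types. A further one at 78018859 to 78018992 held 134 and 102 bp in heterozygotes, against 86 and 120 bp in wild types, so that there the groups overlapped. Inside the gene a single library, heterozygote 2, had a peak of 76 bp. With 2 libraries against 2, no single region can pass a test.

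To find where accessibility was present in one genotype and absent from the other, overlapping peaks of the 4 lists were merged into 121157 regions. Gained regions were those with a peak in both heterozygotes and in neither wild type, and lost regions those with a peak in both wild types and in neither heterozygote. The gained regions numbered 5365 (4.43% of all) and the lost ones 1628 (1.34%), and 31694 (26.2%) held a peak in every library of the set. More regions were seen in one library alone than in all 4, with 25964 in wild type 1 and 17536 in heterozygote 2. Among regions found in 3 libraries, 5318 lacked only wild type 1, 4094 only wild type 2, 3363 only heterozygote 3 and 854 only heterozygote 2.

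**Figure D1:**
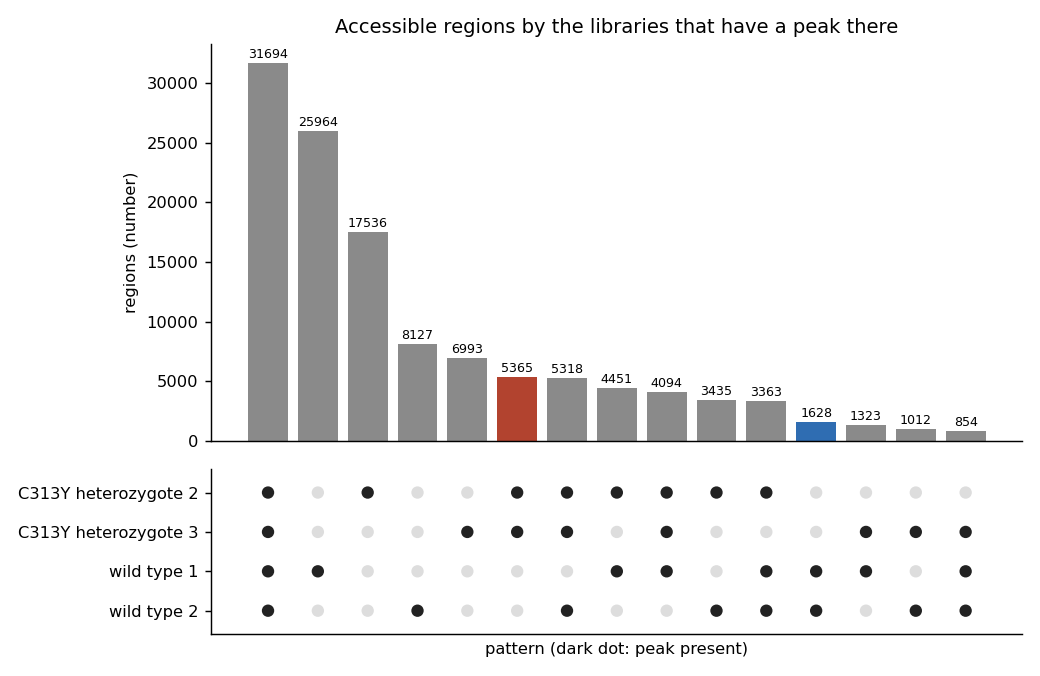
Number of merged regions (vertical axis) for each pattern of presence over the 4 libraries (dark dots below the bars), with gained regions in red and lost regions in blue. Gained regions (5365) outnumber lost ones (1628), and both are fewer than the regions seen in wild type 1 alone (25964).

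Because every group held one long and one short list, the same counts were made for the mixed pairings of these libraries. Heterozygote 2 with wild type 1, the long lists, had 4451 regions (3.67%) that heterozygote 3 and wild type 2 lacked, and 1012 (0.835%) lay in the reverse direction. Heterozygote 2 with wild type 2 had 3435 regions (2.84%) that heterozygote 3 and wild type 1 lacked, and 1323 (1.09%) lay in reverse. The total over both directions was 6993 for genotype, above the 5463 and 4758 of the mixed pairings (exact permutation p = 0.333, the smallest that 3 pairings allow). The first direction exceeded the second by 3737 regions for genotype, 3439 for the long against the short lists and 2112 for the remaining pairing. As a ratio of the larger to the smaller count this was 3.30, 4.40 and 2.60 in the same order, so that genotype was largest by difference and not by ratio. When each list was reduced to its 55861 widest peaks, 4044 regions were gained and 1909 lost, 5953 in all, and the mixed totals were 4839 and 4191. The ratio was then 2.12 for genotype, 1.35 for the pairing of the long against the short lists, with the direction turned, and 1.78 for the remaining pairing, so that at equal length genotype was largest in total, difference and ratio.

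With a single wild type as control, gained regions did not outnumber lost ones. A lost call then needs a peak in 1 library and a gained call in 2, so the rule itself leans towards loss. With a single heterozygote it leans towards gain, so these counts cannot decide the balance. With wild type 2 as the only control, 9442 regions were gained and 9840 lost, whereas with wild type 1 alone 10716 were gained and 27714 lost. With heterozygote 3 as the only heterozygote, 12627 regions were gained and 4969 lost, and with heterozygote 2 alone 23067 were gained and 2484 lost. In pairs of similar list length, heterozygote 2 had 31654 regions absent from wild type 1, which had 29769 absent from heterozygote 2. Heterozygote 3 had 17775 absent from wild type 2, which had 16553 absent from heterozygote 3. The difference in these pairs was thus small beside the number of regions private to each library.

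**Figure D2:**
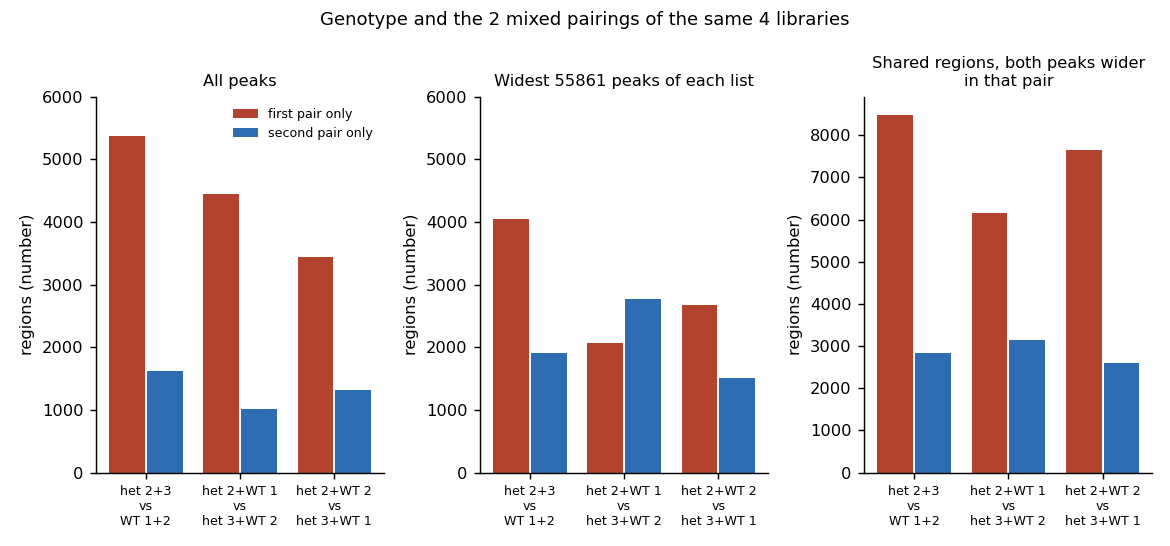
Regions present in only the first pair (red) or only the second pair (blue) of libraries for genotype (left in each panel) and the mixed pairings, with all peaks, with lists cut to equal length, and for regions shared by all 4 libraries in which both peaks of a pair are wider. Genotype has the largest total in each panel, and at equal length the long-list pair has the smaller of its counts (2063 against 2776).

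Gained and lost regions were both short and lay mostly away from gene ends. The median width of a merged region was 158 bp for gained and 174 bp for lost regions, against 351 bp for regions shared by all 4 libraries. The narrower of the pair of peaks behind a call had a median of 97 bp in gained and 97 bp in lost regions. It reached 300 bp in 158 gained regions (2.95%) and in 33 lost ones (2.03%), against 6498 (20.5%) of the shared regions. Placed by the nearest coding gene, 8.67% of gained regions were near a gene end (within 1 kb), 50.1% further inside a gene and 41.2% intergenic. Of lost regions 6.63% were near a gene end, 42.4% inside a gene and 50.9% intergenic. Of shared regions 35.3% were near a gene end, 33.2% inside a gene and 31.5% intergenic. The 4 sets of the mixed pairings had 7.71% to 9.58% near gene ends, a range that holds the gained share and lies above the lost one.

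Gained regions lay nearer to regions shared by all 4 libraries than lost regions did. The median distance was 12.3 kb for gained and 21.3 kb for lost regions, and 26.2% of gained against 12.2% of lost regions had a shared region within 5 kb. Distances in the mixed pairings ran along with wild type 1. The sets present in wild type 1 and in one heterozygote had medians of 19.1 and 18.2 kb, and the sets absent from it 12.3 and 13.3 kb. Lost regions are present in wild type 1 by definition and gained ones absent from it, so that genotype and this library cannot be told apart in the measure. By chromosome the gained share ran from 2.74% of regions on X to 5.03% on chromosome 15, and the lost share from 0.977% on chromosome 19 to 1.60% on chromosomes 3 and 18. No stretch of 1 Mb held more than 14 gained or 6 lost regions.

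The widest gained regions were led by one between genes on chromosome 10 (14734445 to 14735272), 16.2 kb from Gje1. It held 828 and 739 bp of peaks in heterozygotes 2 and 3 and none in the wild types, and had a peak in 4 of 4 mutant and 3 of 4 wild-type libraries of the other genotypes. Next came a region in AA986860 on chromosome 1 (130733694 to 130734634; 877 and 626 bp) and one 4.89 kb from Plxna4, a semaphorin receptor gene, on chromosome 6 (32138979 to 32139657; 626 and 607 bp). A region inside Ebf1, which encodes a transcription factor of B cells and stroma (chromosome 11, 44744115 to 44744654), held 514 and 538 bp. Among lost regions the widest lay 5.30 kb from Irx2, a homeobox gene, on chromosome 13 (72639500 to 72640386). Its peaks measured 882 and 594 bp in wild types 1 and 2, with none in the heterozygotes. A lost region 3.29 kb from Tmem125 on chromosome 4 (118548212 to 118548714; 432 and 503 bp in wild types) had a peak in all 8 other libraries of the series. Each of the 10 widest regions, 5 gained and 5 lost, had a peak in at least 1 wild-type library of the other genotypes.

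A gene was counted as open where a peak came within 1 kb of its start or its end as annotated, for 21631 protein-coding genes. By this rule 13621 and 12815 genes were open in heterozygotes 2 and 3, against 13187 and 12805 in wild types 1 and 2. In all 4 libraries 11712 genes were open, and 7019 were open in none. Heterozygotes gained 183 genes (0.846% of all genes, or 2.36% of the 7749 with no peak in either wild type). They lost 80 (0.37% of all genes, or 0.661% of the 12110 with a peak in both wild types). The long lists had 251 genes (1.16%) that the short lists lacked, with 33 (0.153%) in reverse, and the other mixed pairing gave 162 (0.749%) and 61 (0.282%). The genotype total of 263 thus lay between the mixed totals of 284 and 223 (exact permutation p = 0.667). At equal list length genotype gave 165 gained and 87 lost genes, 252 in all, and the mixed totals were 253 and 239. Without wild type 1, 503 genes were gained and 263 lost.

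The gained genes with the widest peaks had varied roles. At Gm3739, of unknown function and one of a family of near-identical copies on chromosome 14, so that its reads are uncertain, the widest peak measured 883 and 925 bp in heterozygotes 2 and 3. Flrt1, which encodes an adhesion and axon guidance protein (chromosome 19, 7087464 to 7166183), had 390 and 451 bp in heterozygotes. Amigo1, whose promoter is printed above, had 385 and 402 bp, and Cacng1, a calcium channel subunit of skeletal muscle, had 369 and 453 bp. Neither wild type had a peak at the ends of these genes. Filip1l had 365 and 370 bp, the photoreceptor kinase gene Grk1 had 390 bp in heterozygote 2 and a narrower peak in heterozygote 3, and the lectin gene Clec2i, whose product is a ligand of natural killer cell receptors, had 316 and 420 bp. At Synj1, a phosphatase of synaptic vesicles, the peaks measured 516 and 321 bp in heterozygotes, but its window held no gained region.

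By peak width the lost genes were led by Clip2 and Clasp2, which act at microtubule ends. Clip2 (chromosome 5, 134489383 to 134553767) had peaks of 609 and 776 bp in wild types 1 and 2, and Clasp2 (chromosome 9) had 935 and 449 bp, with none within 1 kb of an end in either heterozygote. No lost region lay in the windows of Clip2, Clasp2, Gja5, the collagen chaperone gene Fkbp10 (555 and 350 bp in wild types) or the sulfate transporter gene Slc13a1 (342 and 323 bp), so that the calls of these genes were not matched by a call of a region. Of the 183 gained genes 148 had a gained region in the window, and of the 80 lost genes 52 had a lost region. Among genes named below, the gained Wt1, Skor1, Gm46963 and Dkk4 and the lost Aldh3a1, Tex46, Bhmt2 and Loxl2 had no such region. Gja5, a connexin of arteries and the cardiac conduction system, had 331 and 495 bp in wild types. It had a peak in none of the other 4 wild types, but in 3 of 4 mutant libraries of the other genotypes, and was gained in C442G heterozygotes. Ripor3 had 321 and 392 bp in wild types, and Dpt, an extracellular matrix gene of fibroblasts, had 255 and 229 bp. Gm10058 on X, one of a multicopy family and therefore uncertain, had 243 and 357 bp and no peak in any other library.

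**Figure D3:**
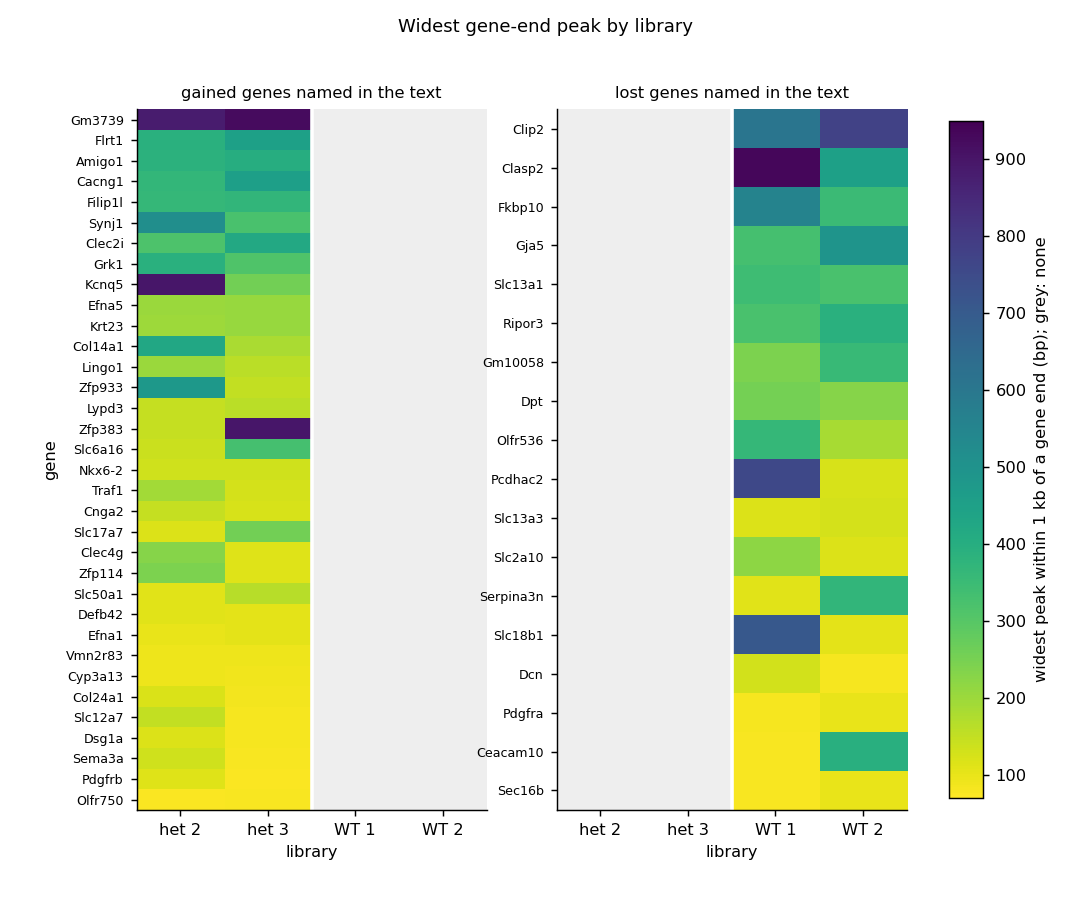
Width of the widest peak (colour, bp) within 1 kb of a gene end for the gained and lost genes named by rule (rows), in heterozygotes 2 and 3 and wild types 1 and 2 (columns, grey where there is no peak). Gained genes run from Gm3739 (883 and 925 bp) down to Olfr750 (75 and 78 bp), and lost genes from Clip2 (609 and 776 bp) down to Sec16b (77 and 99 bp).

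Most called genes were open somewhere else in the series. Only 22 of the 183 gained and 22 of the 80 lost genes had a peak in none of the 4 other wild types. The gained ones included Cnga2 (146 and 123 bp in heterozygotes 2 and 3), Synj1, the glutamate transporter gene Slc17a7 (117 and 259 bp), Wt1, Hba-x and Slc12a7. No peak in any of the 8 other libraries was found for 6 gained genes (Apol11a, Ceacam2, Gm428, Rhox2e, Xlr and Ptpn1) and 10 lost ones. These lost genes were Gm10058, the cornified envelope genes Sprr2a1 and Sprr2a3, Cntn3, Xlr4c, Aldh3a1, Rasgrf2, Tex46, Bhmt2 and Loxl2. Several of them (Xlr, Xlr4c, Rhox2e, Sprr2a1, Sprr2a3 and Apol11a) belong to families of close copies and are uncertain. At the other extreme, 7 gained genes and 0 lost genes had a peak in all 4 other wild types: Spred2, Asb10, Gm46963, Zfp114, Atad5, Calml4 and Dkk4.

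The lists of genes linked to AIRE function had few genes that could be called. Of 16 reported Aire-induced antigens 10 were at risk of gain and 2 of loss, and 0 were gained and 0 lost, a count at the share over all genes (2.36% and 0.661% of those at risk). Of the same 16 genes 10 had a peak in none of the 4 libraries, among them the insulin gene Ins2 and the somatostatin gene Sst. Peaks at the others were scattered over genotypes, as at the acetylcholine receptor subunit Chrna1 with 169 and 81 bp in heterozygotes 2 and 3, against 221 bp in wild type 2 and none in wild type 1. Of 8 Fezf2-dependent antigens 4 were at risk of gain and 3 of loss, and again 0 were gained and 0 lost. Among 25 genes of AIRE partner proteins, 24 were open in all 4 libraries, as were 19 of 20 interferon-induced genes. The mTEC identity list had 0 gained and 0 lost, and tuft cell, T cell, B cell, dendritic, endothelial and cortical epithelial lists likewise. Of the NF-kB pathway genes, which control the differentiation of these cells, Traf1 was gained (193 and 125 bp in heterozygotes, no peak in the wild types) and 20 of 22 were open in all 4.

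A few lists had called members, to be read against the 2.36% of genes at risk that were gained and the 0.661% that were lost. In the corneocyte-like list, genes of a keratinizing state that follows Aire expression, Lypd3 (146 and 162 bp in heterozygotes 2 and 3) and the desmosomal gene Dsg1a (117 and 81 bp) were gained, 2 of 8 at risk. Lypd3 had a peak in 0 of 4 other mutant and 2 of 4 other wild-type libraries, while Dsg1a had one in 4 of 4 and 2 of 4. Nkx6-2 (132 bp in each heterozygote) was gained among 5 mimetic cell factors at risk. Of FLRT, AMIGO and LINGO adhesion genes 3 of 5 at risk were gained, Flrt1, Amigo1 and Lingo1 (202 and 160 bp). Of ephrin and Eph receptor genes 2 of 3 were gained, the ligand genes Efna5 (203 and 205 bp) and Efna1 (100 and 107 bp). The call of Efna1 ended at equal list length, and its window held no gained region. These families were listed because members of them were already known to be called, and their shares describe these libraries only.

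Stromal genes were called in both directions. In the fibroblast and mural list, 3 of 5 genes at risk were lost: Dpt, the proteoglycan gene Dcn (131 and 81 bp in wild types 1 and 2) and the growth factor receptor gene Pdgfra (81 and 100 bp). The receptor gene Pdgfrb of the same list was gained (112 and 76 bp in heterozygotes), but its window held no gained region. At equal list length the calls of Pdgfra and Pdgfrb ended, and those of Dpt and Dcn held. Of the 14 genes of the list, 5 and 5 had a peak in heterozygotes 2 and 3, against 7 and 6 in wild types 1 and 2. Col3a1 had none in any library of the set, and Col1a1 had a peak in all 4. Dcn, Pdgfra and Dpt had a peak in 2, 3 and 1 of the 4 other wild types. Whether admixed stromal cells took part was not tested.

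Among the large families, chemosensory receptors stayed closed. Of 1110 olfactory receptor genes 1072 had a peak in none of the 4 libraries, Olfr750 was gained (75 and 78 bp in heterozygotes) and Olfr536 was lost (365 and 186 bp in wild types). Of 355 vomeronasal receptor genes 349 had none, and Vmn2r83 was gained. The calls of Olfr750 and Vmn2r83 ended at equal list length. Solute carriers had 5 gained of 120 at risk (4.17%) and 8 lost of 228 (3.51%). The gained ones included the potassium-chloride cotransporter gene Slc12a7 (150 and 82 bp in heterozygotes), Slc17a7 and the sugar transporter gene Slc50a1 (111 and 165 bp). The lost ones included the sulfate and dicarboxylate transporter genes Slc13a1 and Slc13a3 and the glucose transporter gene Slc2a10 (220 and 115 bp in wild types). The window of Slc2a10 held no lost region, and its body with 1 kb around it held 1 gained region. Zinc finger genes gained 3 of 65 (Zfp114, Zfp383 and Zfp933) and lost 0 of 299. Collagens gained 2 of 24 at risk, Col14a1 (422 and 180 bp) and Col24a1 (119 and 87 bp). Keratins gained 1 of 31, Krt23 (198 and 207 bp), and potassium channels 1 of 37, Kcnq5 (896 and 258 bp), whose window held no gained region. Cytochromes P450 gained 1 of 69 (Cyp3a13, whose call ended at equal list length), defensins 1 of 64 (Defb42) and guidance genes 1 of 12 (Sema3a). C-type lectins gained 2 of 27 (Clec2i and Clec4g), and serpins lost 1 of 9 (Serpina3n, 108 and 370 bp in wild types). Over all genes at risk 2.36% were gained and 0.661% lost. The gained shares of keratins, potassium channels, cytochromes P450 and defensins lay near that of all genes. Homeobox cluster, keratin-associated, major urinary protein and casein genes had 0 gained and 0 lost.

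The clustered protocadherins, adhesion genes that are chosen in combinations by neurons, stood out in wild type 1. Of 57 genes, 27 and 23 had a peak in heterozygotes 2 and 3, against 8 in wild type 1 and 23 in wild type 2. Wild type 1 was thus the low library by number of genes. By width, 20 of the 22 genes open in the other 3 libraries were wider in both heterozygotes than in wild type 2, and 0 were narrower. The shares over all genes were 43.9% and 22.3%. A single peak can count for adjacent genes, and these genes are clustered. How many separate peaks stand behind the counts was not determined, so the genes may not be independent. Pcdhac2 was lost (760 and 122 bp in wild types), 1 of 6 genes at risk of loss, and 0 of 32 at risk of gain were gained. Over all genes at risk 0.661% were lost and 2.36% gained. Throughout the set, 28 of the 57 genes were closed.

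A second measure asked whether regions open in all 4 libraries differed in width. Both heterozygotes had the wider peaks in 8488 of the 31694 shared regions (26.8%) and both wild types in 2844 (8.97%). The median width over all shared regions was 259 and 218 bp in heterozygotes 2 and 3, against 208 and 216 bp in wild types 1 and 2, and heterozygote 2 was the widest. The total of 11332 regions for genotype was above those of the mixed pairings, 9314 and 10251 (exact permutation p = 0.333). Heterozygote 2 with wild type 1 had the wider peaks in 6166 regions (19.5%) and the other libraries in 3148 (9.93%). Heterozygote 2 with wild type 2 against the other libraries had a split near that of genotype, 7648 (24.1%) and 2603 (8.21%). Without wild type 1, both heterozygotes were wider than wild type 2 at 15366 regions and narrower at 8970. Regions wider in heterozygotes lay near gene ends in 37.8% of cases and those wider in wild types in 28.1%, against 35.3% of all shared regions.

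At gene ends the same count gave 3391 of 11712 genes (29.0%) with a wider peak in both heterozygotes and 809 (6.91%) with a wider one in both wild types. The mixed pairings gave 2246 and 1097 genes, and 3113 and 849. The mTEC identity list had 8 of 16 open genes wider in both heterozygotes and 1, Foxn1, wider in both wild types. In the mixed pairings the same list gave 2 and 1, and 1 and 3. Without wild type 1 the list had 12 of 16 genes wider in heterozygotes and 3 narrower, against 43.9% and 22.3% of all 12029 genes open in those libraries.

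Members of the list differed in size. The chemokine gene Ccl17 had 934 and 826 bp in heterozygotes 2 and 3, against 97 and 263 bp in wild types 1 and 2, and the groups were far apart. Trp63, the epithelial p63 gene, had 530 and 406 bp in heterozygotes, against 78 and 89 bp in wild types. The costimulatory receptor gene Cd40 had 546 and 823 bp in heterozygotes, against 498 and 502 bp in wild types. H2-Ab1, a class II gene, had 459 and 353 bp in heterozygotes, against 270 and 333 bp in wild types. The claudin gene Cldn3 stood at 616 and 611 bp in heterozygotes, against 590 and 594 bp in wild types, a small gap without overlap. Foxn1 went the other way, with 105 and 86 bp in heterozygotes, against 293 and 407 bp in wild types. Epcam, Fezf2, Relb and Spib overlapped between genotypes.

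**Figure D4:**
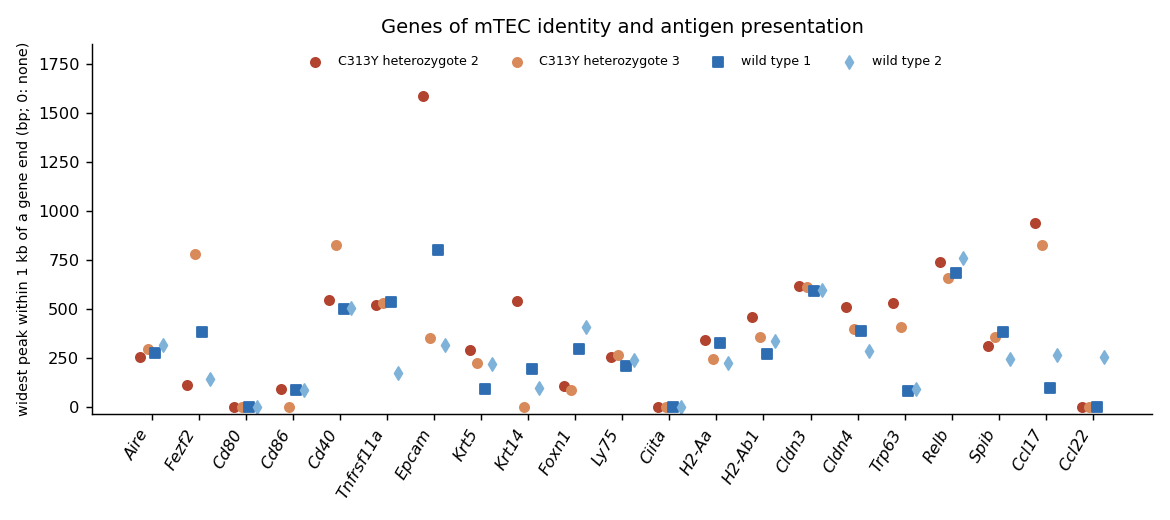
Width of the widest peak (bp, vertical axis) within 1 kb of a gene end for 21 genes of mTEC identity and antigen presentation, in heterozygotes 2 and 3 (circles) and wild types 1 and 2 (square and diamond). Ccl17 (934 and 826 bp against 97 and 263 bp) and Trp63 (530 and 406 bp against 78 and 89 bp) separate the genotypes most, and Foxn1 is wider in both wild types.

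Other lists were counted in the same way, beside the 29.0% and 6.91% over all open genes. Of 20 open NF-kB genes 8 were wider in both heterozygotes and 0 in both wild types, with 2 and 2, and 6 and 1, in the mixed pairings. Without wild type 1, 11 of these 20 were wider in heterozygotes and 4 narrower. Traf6, an adaptor that links receptors to the pathway, had 737 and 632 bp in heterozygotes 2 and 3, against 160 and 190 bp in wild types 1 and 2. Traf2 had 482 and 418 bp in heterozygotes, against 329 and 293 bp in wild types, and the inhibitor gene Nfkbia had 1153 and 1112 bp, against 1043 and 1072 bp. Interferon-induced genes had 7 of 19 wider and 1 narrower, and one mixed pairing gave the same counts. Oas1a, an antiviral synthetase gene, had 699 and 445 bp in heterozygotes, against 151 and 115 bp in wild types. AIRE partner genes were split, with 6 of 24 wider in heterozygotes and 4 wider in wild types. Among them the cyclin gene Ccnt1 of the elongation factor P-TEFb had 414 and 411 bp in heterozygotes, against 667 and 776 bp in wild types, while Cdk9, its kinase, had 1010 and 1021 bp, against 989 and 989 bp. All 5 open homeobox cluster genes (Hoxa4, Hoxa10, Hoxb8, Hoxc10 and Hoxc13), 3 of 4 cortical epithelial genes (Ctsl, Dll4 and Ccl25) and 3 of 3 dendritic cell genes (Batf3, Flt3 and Xcr1) were wider in heterozygotes. Semaphorins and related guidance genes had 6 of 29 wider in heterozygotes and 8 wider in wild types. Constitutively expressed genes had 4 of 14 wider and 1 narrower, near the share over all genes. For that list the mixed pairings gave 1 and 1, and 6 and 0. Without wild type 1 it had 5 of 14 wider in heterozygotes and 5 narrower.

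Gained regions were also counted within gene bodies. At least 1 gained region lay in 2616 genes and at least 1 lost region in 771, and 249 genes held both. Such genes were long, with a median of 61.0 kb for gained and 104.9 kb for lost, against 17.3 kb over all genes. Rbfox3, a neuronal splicing factor gene, held the most gained regions, 7 among 37, with 1 lost. Among genes with no lost region, Prkca, a protein kinase C gene of 410502 bp, held the most, 6 gained regions among 44. Other long genes with none lost held 5 each, among them Arid5b, a chromatin regulator, Etv6, an ETS repressor, Tiam1 and Srgap1, regulators of the cytoskeleton, the formin genes Fmnl2 and Fmn1, Maml3, a Notch coactivator, Sdccag8 and Megf11. The regions of any kind in these named genes ran from 18 at Megf11 to 52 at Tiam1. Over all regions of the set 4.43% were gained and 1.34% lost. Pde4d, a phosphodiesterase gene, and Tspan9, a tetraspanin gene, held 3 lost regions each, and Pde4d also held 4 gained ones. Ikzf1, a lymphoid transcription factor gene, Map3k7, Sec16b and Ceacam10 held 2 each.

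How the same regions behaved in the other genotypes was asked of the 8 remaining libraries, which the calls did not use. Gained regions had a peak there in 62.1% and 70.8% of cases in Aire -/- libraries, against 13.8% and 15.9% in their wild types. They had one in 84.3% and 83.5% of cases in C442G heterozygotes, against 70.2% and 72.2% in theirs. Lost regions had a peak in 35.0% and 38.8% of cases in Aire -/- libraries, against 7.00% and 5.84% in their wild types, and in 65.1% and 64.1% of C442G heterozygotes, against 58.2% and 59.8%. Gained and lost regions were thus both found more often in mutants than in wild types, as were all regions of the set, and these lists differ in length. Mutant lists held 85826 and 94976 peaks in Aire -/- libraries, against 34715 and 34047, and 122326 and 115034 in C442G heterozygotes, against 93659 and 94458.

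**Figure D5:**
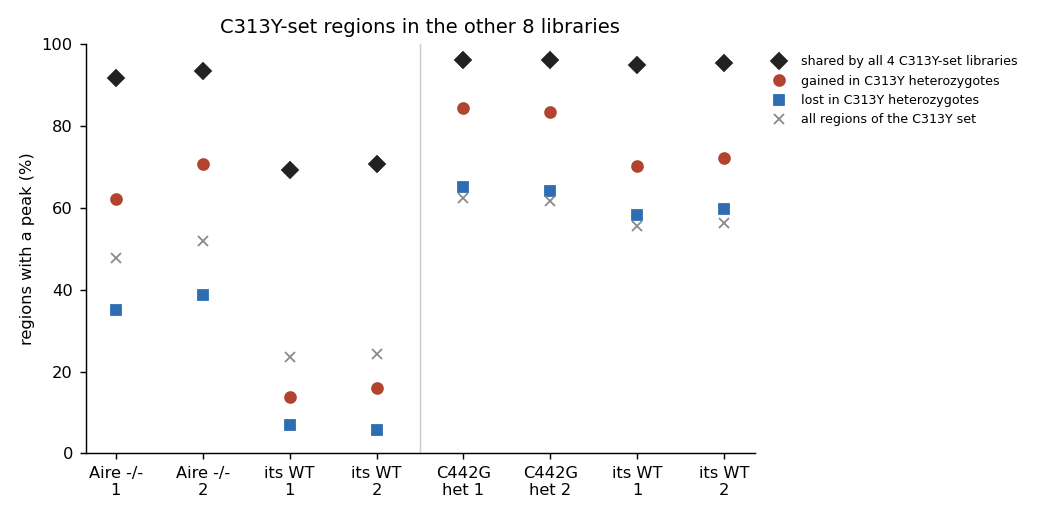
Share of C313Y-set regions (%, vertical axis) that have a peak in each of the other 8 libraries (horizontal axis), for regions shared by all 4 C313Y-set libraries, gained, lost and all. Gained regions lie above lost ones in all 8 libraries, wild types included.

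As a comparison within each library, the share of gained regions was divided by that of lost regions. The ratio was highest in the shortest lists, those of the wild types of the Aire -/- set, so it does not separate genotype from list length. The log2 of this ratio was 0.83 and 0.87 in Aire -/- libraries, against 0.98 and 1.44 in their wild types. In C442G heterozygotes it was 0.37 and 0.38, against 0.27 and 0.27 in their wild types. Mutants minus wild types came to -0.36 for Aire -/- and 0.11 for C442G. The mean over both was -0.13 (exact permutation p = 0.556, two-sided; the smallest that 36 assignments allow is 0.0556, so the test could not pass 0.05). The direction was not stable. At equal list length the mean was 0.14 (exact permutation p = 0.167), and it was 0.45 without heterozygote 2 and 0.31 without heterozygote 3, each at the smallest possible exact permutation p. Gained regions were more often open than lost ones in every other library, wild types included. In each mixed pairing the set absent from wild type 1 was likewise open more often than the set present in it, in every other library.

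Of gained regions 81.3% had a peak in at least 1 of the 4 other wild types, against 70.3% of lost regions and 62.3% of all regions. No peak in any other library was found for 398 gained (7.42%) and 328 lost regions (20.1%), both below the 29.3% of all regions. In the mixed pairings the sets absent from wild type 1 had 77.1% and 81.8% by the first measure and 12.1% and 8.79% by the second. The sets present in wild type 1 had 74.9% and 68.0%, and 15.1% and 20.5%. Genotype and this library therefore cannot be told apart in either measure. Regions gained in heterozygotes overlapped regions gained in Aire -/- cells in 1842 cases, 34.3% of the C313Y list and 7.2% of the longer Aire -/- list. Lost regions did so in 291 cases (17.9%), and 15.4% of all regions of the set overlapped that list. With C442G-gained regions the overlap was 303, 5.65% of the C313Y list and 2.65% of the other, against 2.90% of all regions. Calls in the Aire -/- set were nearly all gains, with 25625 regions and 1128 genes gained against 107 regions and 6 genes lost. The Aire -/- lists were also longer than those of their wild types, so overlaps with these gains do not separate genotype from list length. Of gained genes 48 were also gained in Aire -/- cells, Amigo1, Flrt1, Cacng1, Grk1, Lingo1 and Nkx6-2 among them, and 3 in C442G heterozygotes (Slc12a7, Skor1 and Cnga2). Of lost genes 21 were gained in Aire -/- cells and 5 in C442G heterozygotes, with Dcc, C1qtnf2 and D830030K20Rik gained in both. The share also gained in Aire -/- cells was thus 26.2% of gained and 26.2% of lost genes, against 5.21% of all genes, and gave no difference between gained and lost. It was 4.26% and 1.86% of the 1128 genes gained in Aire -/- cells. The share also gained in C442G heterozygotes was 1.64% of gained and 6.25% of lost genes, against 0.897% of all genes, and made up 1.55% and 2.58% of the 194 genes gained there. These comparisons share no library.

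The sequence of called promoters was examined in windows of 300 bases, 250 before and 50 after the start of transcription. A window was gained or lost by the same presence rule, and 256 were gained, 79 lost, 11244 open in all 4 libraries and 17937 closed in all 4. The median GC content was 56.3% in gained and 59.3% in lost windows, against 62.7% in windows open in all 4 and 47.7% in closed ones. The GC box GGGCGG, searched on both strands, was in 41.4% of gained and 44.3% of lost windows, against 71.3% of open, 11.6% of closed and 35.9% of all windows. TGANTCA, the letters bound by AP-1 factors, was in 12.1% of gained and 8.86% of lost windows, against 4.39% of open, 9.96% of closed and 7.85% of all windows, so that the gained share was near that of closed windows. CCGGAAGT, the letters of ETS factors at housekeeping promoters, was in 0.391% of gained and 0 lost windows, against 9.36% of open, 0.942% of closed and 3.91% of all windows. In GC content and in GC boxes gained and lost windows both lay between closed and constantly open ones. In the printed sequences the Amigo1 capitals hold a GC box, the Nkx6-2 capitals hold CCAAT at 2 places, and the Lypd3 capitals hold a GC box.

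Signals linked to sex did not run evenly over the groups. Of 4 genes on Y, 1 and 3 had a peak in heterozygotes 2 and 3, against 0 and 0 in wild types 1 and 2. Peaks on the whole of Y numbered 58 and 90 in heterozygotes, against 200 and 45 in wild types, and those at Xist, the RNA that silences an X, numbered 3 and 0, against 3 and 1. The part of sex in the results was not tested on its own, but autosomes alone gave 5267 gained and 1584 lost regions and 177 gained and 75 lost genes. Of gained regions 1.83% lay on X and of lost ones 2.70%.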

How the data were processed

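ATAC-seq libraries were grouped by title and genotype, and pairing each mutant with the wild types of the same title prefix is an assumption. Tools named without a version, per the submitters' processing notes, were cutadapt, Bowtie2, Picard and MACS2, and the build was mm10. Shifting of reads and removal of duplicates are not given in the sources used. For the C313Y set the authors deposited positions only, so depth, score and threshold are unknown. The other 8 lists, deposited as broad peaks, carry the authors' fold enrichment, a ratio over background, and −log10 p per peak. The authors' fold was not used in any result. Their −log10 p served to shorten those lists in the alternative of equal length. Peaks were called per library.

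Peaks on chromosomes 1 to 19 and X were merged at an overlap of 1 bp, and regions, genes and widths were counted in Python 3.11.15 with numpy 2.4.6, pandas 2.3.3 and scipy 1.17.1; figures used matplotlib 3.10.9. Coding genes came from RefSeq on GRCm38.p6 (21631, of which 17274 had a promoter sequence). One peak can count for adjacent genes, and a gene's peaks may lie at different ends in different libraries. The 4 Y-linked genes were counted apart. Tests were exact permutations over libraries. They were two-sided except for the totals over the 3 pairings, where p is the share of pairings with a total at least that of genotype. Intervals of shares, used to judge alternatives, were exact 95% binomial ones and cover counting error only. Regions and genes were not treated as replicates.

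The groups, 37 gene lists (16 by symbol and 21 by name pattern) and tests were chosen with earlier results of these data known. The list symbols Spt1 and Mx2 were not matched. The value of 1 list member is not reported here. Named genes were Aire, the 8 gained and 8 lost genes with the widest gene-end peaks, up to 4 gained and 4 lost members of each list, the genes with most called regions of one direction and none of the other in the body, and genes gained in all 3 genotypes; the genes described for width, those with a peak in no or all other wild types, Rbfox3 and Pde4d were chosen after their values were seen. The count of width differences, and wild type 1 reduced in length, were also added after seeing the data. Counting was tested on simulated lists. Alternatives were equal list length, a minimum width, other overlap rules, other gene windows, other controls and each replicate left out.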

Additional observations from a re-analysis of the deposited data

Results flagged for a closer look

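Peaks at Y-linked genes were found outside the chromosomes used for the comparison, at 1 gene in C313Y heterozygote 2 and at 3 genes in C313Y heterozygote 3, against 0 in each of both wild types. The labels give no sex.

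The log2 ratio of gained to lost share in the other libraries differed in direction between genotypes. It was -0.36 for Aire -/- minus wild type and 0.11 for C442G heterozygotes minus wild type, and the difference of 0.47 had an exact permutation p of 0.0556, the smallest that 36 assignments allow, so that it could not pass a threshold of 0.05.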

How the results depend on the processing

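Genotype had the largest total of regions among the 3 pairings with all peaks, at equal list length, with peaks of at least 300 bp (1842, against 1403 and 1486) and with wild type 1 reduced to its 55861 widest peaks (7586, against 4422 and 5036). Counts moved with the definition. Peaks of at least 300 bp gave 1418 gained and 424 lost regions, 1888 shared regions wider in heterozygotes and 403 wider in wild types, and 487 gained and 131 lost genes, with 31.5% and 28.1% near gene ends. Fixed windows of 500 bp gave 8222 gained and 2653 lost windows, 10875 in all, with 13.5% and 10.6% near gene ends. Requiring peaks to cover at least 50% of a region gave 13.4% and 11.1% near gene ends and 5024 and 1661 width differences. A window of 2500 bp put 16.1% and 11.3% near gene ends. Gene starts alone gave 116 gained and 51 lost genes, and a region call within the window gave 52 lost genes. With all 6 wild types as controls, 1002 regions were gained and 21 lost, 1023 in all, and 22 genes were gained and 0 lost, since a call then needs agreement of more libraries. The contrast in the other 8 libraries turned from -0.13 to 0.14 (exact permutation p = 0.167) at equal length and to 0.0020 (exact permutation p = 1) with peaks of at least 300 bp; the cause was not tested. Equal length gives no value for peak number.

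With each library left out in turn, and with 1 library less to agree, gained regions ranged from 9442 to 23067, lost ones from 2484 to 27714 and the total from 17596 to 38430. Width differences ranged from 11533 to 17867 in favour of heterozygotes and from 5748 to 9469 in favour of wild types. Gained genes ranged from 318 to 595 and lost genes from 134 to 525, the share near gene ends from 7.68% to 9.97% of gained and from 3.92% to 9.82% of lost regions. The log2 ratio of peak number ranged from -0.18 to 0.25 and that of covered length from -0.10 to 0.35, with both negative without heterozygote 2 and peak number also without wild type 2 (-0.15). The contrast in the other 8 libraries ranged from -0.64 to 0.45 and was positive without heterozygote 2 (0.45) or heterozygote 3 (0.31), each with an exact permutation p of 0.0556, the smallest possible.

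Of 52 named called genes, 44 kept the call at equal length, 34 with a window of 500 bp, 25 with 2500 bp and 14 with peaks of at least 300 bp. No paired analysis was possible because the C313Y groups share only replicate number 2. Depth was unknown, so absence of a peak means that none was called.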
